A study of Homo sapiens with 6 samples.

Results

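The clustered histone genes were examined as all rows of the expression table whose symbol starts with HIST1H, HIST2H, HIST3H or HIST4H. This rule gave 88 genes of 50868, of which 8 belonged to class H1, 21 to H2A, 26 to H2B, 17 to H3 and 16 to H4. By annotation or symbol 17 were counted as pseudogenes. RNA had been sequenced from UM-UC-3 and from 5637, 2 lines of human bladder cancer cells, each carrying a lentiviral short hairpin RNA and selected with puromycin. The hairpins were a control (sh-NC) and 2 hairpins (sh-LNMAT1#1 and sh-LNMAT1#2) against the long noncoding RNA LNMAT1, whose role in bladder cancer cells the series addresses by knockdown. Every cell population, controls included, had thus been infected and selected, and each was a stable pool with residual LNMAT1. There was 1 library per hairpin and line, 6 in all, with no replicate of any construct. Values are FPKM, fragments scaled to the length of the gene model and to the mapped depth of the library, and the depth recovered from them was 19375000 to 24707000 fragments per library.

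Histones H2A, H2B, H3 and H4 form the core around which DNA is wrapped, and the linker histone H1 binds the DNA between cores. In human cells most of the clustered genes lie in a large group on chromosome 6 (HIST1) and in smaller groups on chromosome 1 (HIST2 and HIST3), and they are read mainly during DNA replication. Their mRNAs usually end in a short stem-loop in place of a poly(A) tail, and the stem-loop binding protein SLBP carries them through processing, translation and decay. Some members also make a polyadenylated mRNA that reads through the stem-loop. The labels name a stranded mRNA kit, a type that usually captures poly(A) tails, while the study's methods, written for its tissue samples, speak of mRNA obtained by removing ribosomal RNA. Which step these libraries had bears on how much tail-less histone mRNA they retained, and the sources do not settle it.

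The stem-loops are shown first, because they are the feature that sets these mRNAs apart. A stem of 6 bases that starts with GG, a loop of 4 bases that starts with TTT and the complementary stem were searched in the GENCODE 29 transcript models. They were found in 31 of the 88 members and in 27 of 19413 other protein-coding genes of the table (0.139%). The models of 32 members cover the coding part alone and could not be searched past the stop codon, and none of them held the letters. Of 38 members with an untranslated part or several exons, 30 (78.9%) held them. The 31 of 88 is thus not the share of members that have a stem-loop. There were 4 forms, written as DNA with the stem in capitals and the loop in lower case. The first was in 18 members, the second in 5, the third in 5 and the last in 3, and the last 2 forms occurred in H4 genes.

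HIST3H2A: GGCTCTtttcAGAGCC
HIST1H2BD: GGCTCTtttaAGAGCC
HIST1H4J: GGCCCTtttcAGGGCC
HIST2H4A: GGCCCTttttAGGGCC

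How far the model ran past the stem-loop differed between members. In 13 of the 31 members at most 100 bases followed it, as in HIST2H2AA3 with 35 bases, and in 18 members more followed, as in HIST3H2A with 390 bases and HIST2H2BE with 1729 bases. Models of the second kind describe a transcript that continues past the histone-type end.

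Promoters were matched for 61 members by their RefSeq synonyms (GRCh38.p14, from 250 bases before to 50 after the start, the first listed start for the 4 members with several). Each motif was searched on both strands. The letters CCAAT were present in 51 of the 61 windows (83.6%), against 35.7% of 27305 RefSeq genes, TATAAA in 41 (67.2%, against 12%), and the octamer ATTTGCAT in 21 (34.4%, against 1.8%). The octamer stood in 11 of 16 H2A and 9 of 13 H2B windows, in 1 of 13 H3 windows and in none of the H1 and H4 windows. CCAAT stood in every matched H1, H2A, H2B and H3 window and in 3 of 13 H4 windows. The stretches before the start of 3 members on which the results below turn are given 5′ to 3′ on the strand of the gene, with these motifs of either orientation in capitals. They lie at chr6:26056471-26056720 for HIST1H1C, chr6:27146859-27147108 for HIST1H2BK and chr1:228457874-228458123 for HIST3H2A, all for genes on the minus strand.

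HIST1H1C: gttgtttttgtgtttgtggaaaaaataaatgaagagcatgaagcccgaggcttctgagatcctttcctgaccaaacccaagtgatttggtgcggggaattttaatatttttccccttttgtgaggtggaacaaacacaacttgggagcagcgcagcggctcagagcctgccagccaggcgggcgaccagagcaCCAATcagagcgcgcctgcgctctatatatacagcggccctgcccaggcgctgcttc
HIST1H2BK: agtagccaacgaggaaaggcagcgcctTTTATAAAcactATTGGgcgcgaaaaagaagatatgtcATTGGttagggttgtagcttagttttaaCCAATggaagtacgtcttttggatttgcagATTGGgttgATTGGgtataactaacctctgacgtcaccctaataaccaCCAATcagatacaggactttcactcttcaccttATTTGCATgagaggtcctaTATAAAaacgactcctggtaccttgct
HIST3H2A: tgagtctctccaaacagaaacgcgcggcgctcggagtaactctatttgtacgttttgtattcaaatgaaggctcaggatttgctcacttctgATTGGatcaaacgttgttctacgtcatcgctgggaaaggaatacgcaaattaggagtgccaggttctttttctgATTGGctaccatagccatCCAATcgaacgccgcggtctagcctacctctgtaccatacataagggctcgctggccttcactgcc

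HIST1H1C held 1 CCAAT and no exact TATAAA, HIST1H2BK held 6 CCAAT, 3 TATAAA (a pair of them overlapping) and 1 octamer, and HIST3H2A held 3 CCAAT and neither other motif. The HIST3H2A stretch is shared: HIST3H2BB, an H2B gene, starts in the opposite direction with 229 bases between the starts.

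The library labelled 5637 sh-NC stood apart from its line. Over 12717 genes whose mean reached 1 FPKM its log2 values correlated at r = 0.922 to 0.985 with the UM-UC-3 libraries and at r = 0.617 to 0.622 with the other 5637 libraries, and its nearest library was UM-UC-3 sh-LNMAT1#1. That library also stood apart within UM-UC-3, with r = 0.923 and 0.932 to sh-NC and sh-LNMAT1#2, which had r = 0.969 to each other. Over the 25 clustered histone genes at that level the values were 0.847 to 0.958 and 0.6 to 0.602. The points share library depth and gene length, and no test was made. Keratin 19 (KRT19), an epithelial marker, was at 0.0729 FPKM in it and at 299.6 and 409 FPKM in the other 5637 libraries, and at 0.0629 to 0.113 FPKM in UM-UC-3, where 9 of the 12 epithelial and urothelial markers also had a mean under 1 FPKM. The sum of the 12 markers in this library was 29.8 FPKM, within the 25.75 to 32.1 FPKM of UM-UC-3, while the other 5637 libraries had 723.5 and 967.3 FPKM. Results that use this library are therefore given with and without it where that can be done. The knockdown target, listed as LINC01296, was at 14.2 FPKM under the control hairpin in UM-UC-3 and at 6.20 and 6.70 FPKM under the others. The libraries labelled 5637 gave 11.7, 4.70 and 2.14 FPKM in the same order. In all libraries the leukocyte, endothelial and erythroid marker sums stayed under 1 FPKM.

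Most clustered histone genes gave little signal. A mean of at least 1 FPKM was reached by 25 of the 88 (2 H1, 10 H2A, 6 H2B, 2 H3 and 5 H4 genes), 53 were lower but above 0 in some library, and 10 were listed at 0 in all 6. By cluster the 25 comprised 16 of 66 HIST1, 8 of 17 HIST2 and 1 of 4 HIST3 genes, and the single HIST4 gene was below that level. HIST1H2BK, an H2B gene, and HIST1H1C, the H1.2 linker histone gene, led with means of 28.1 and 24.0 FPKM. HIST2H2AA3 and HIST3H2A, both H2A genes, followed at 7.63 and 7.24 FPKM, and then HIST1H4K, an H4 gene, at 6.25 FPKM. HIST1H2BK alone made up 11.96 to 34.4% of the summed FPKM of all members in a library.

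**Figure D1:**
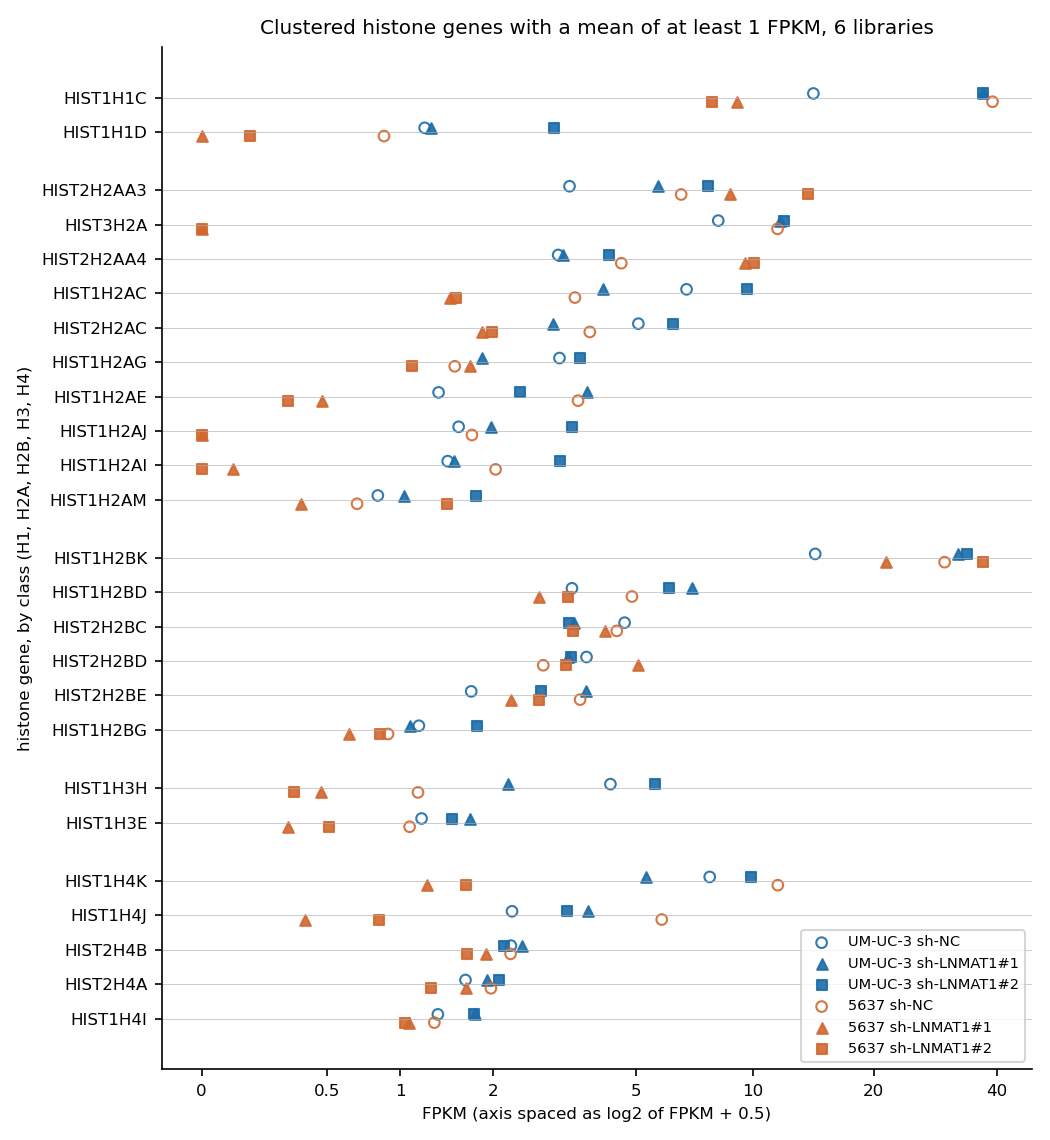
FPKM of the 25 clustered histone genes whose mean reached 1 FPKM, by class, in the 6 libraries (blue, UM-UC-3; orange, 5637; open circles, sh-NC; triangles and squares, the 2 sh-LNMAT1 hairpins; the axis is spaced as log2 of FPKM + 0.5). HIST1H1C and HIST1H2BK lie far to the right, and HIST3H2A is at 0 in both 5637 sh-LNMAT1 libraries and between 8.19 and 11.98 FPKM in the other 4.

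Summed over all members, the UM-UC-3 libraries had 119.9 (sh-NC), 160.3 (sh-LNMAT1#1) and 210.8 FPKM (sh-LNMAT1#2). In the same order the libraries labelled 5637 had 162.6, 85.9 and 107.6 FPKM. The sum was thus higher with each hairpin in UM-UC-3 and lower with each hairpin in 5637, and the classes did not share this evenly. As log2 ratios to the control the 5637 values were -0.92 and -0.6, and -1.71 and -1.59 without near-identical copies and pseudogenes. Bulk RNA does not separate the share of cells in S phase from histone RNA per cell, and neither was tested. Against the same 5637 control, the median of the 24 S phase genes described below differed by 1.0 with sh-LNMAT1#1 and 0.83 with sh-LNMAT1#2. That control is the library that resembled UM-UC-3, so a difference between lines cannot be told apart from a knockdown difference in the 5637 sums. The H1 sum in UM-UC-3 was 17.1, 39.0 and 44.2 FPKM in the order sh-NC, sh-LNMAT1#1, sh-LNMAT1#2. HIST1H1C made up 82.8 to 94.8% of it. Without that gene the H1 sum lay below sh-NC by 0.55 on the log2 scale with sh-LNMAT1#1, and above it by 1.27 with sh-LNMAT1#2. The direction of the difference thus depended on HIST1H1C with sh-LNMAT1#1 only. In FPKM, HIST1H1C made up most of the difference with sh-LNMAT1#2 as well. It went from 14.2 to 37.1 FPKM, beside 17.1 to 44.2 FPKM for the sum. The H3 sum was 11.02, 9.03 and 20.4 FPKM and the H4 sum 17.8, 16.7 and 24.7 FPKM, so these classes were high with sh-LNMAT1#2 and not with sh-LNMAT1#1. In the 5637 sh-LNMAT1 libraries H2B made up 44.1 and 49.8% of the histone sum, against 29.6 to 34.9% in the other 4 libraries.

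**Figure D2:**
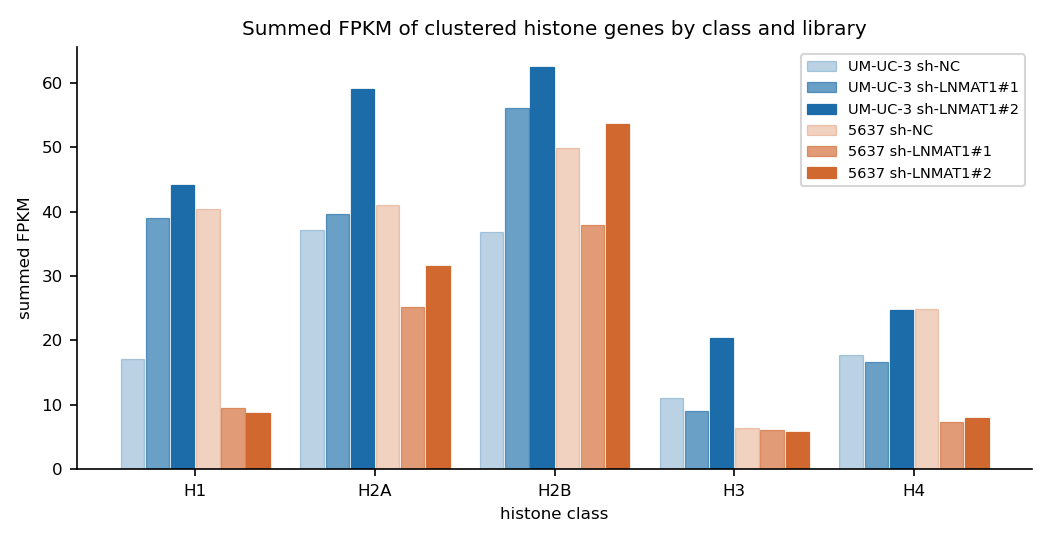
Summed FPKM of the clustered histone genes of each class in the 6 libraries (bars from 0, 1 library each, no error bar). In UM-UC-3 the H1 bars of both hairpins stand above sh-NC, while the H3 bar stands out with sh-LNMAT1#2 at 20.4 FPKM.

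In UM-UC-3, HIST1H1C and HIST1H2BK were at least 2-fold higher than sh-NC with both hairpins, and no member was at least 2-fold lower with both. These 2 genes were 6.25% of the 32 members that averaged at least 1 FPKM over the 3 libraries, beside 1.08% of all 12025 genes at that level that were higher and 0.358% that were lower. Of the 32, 5 reached that level through the hairpin libraries and not in sh-NC, and HIST1H1C and HIST1H2BK were not among these. With the hairpins of both lines as replicates and without the library labelled 5637 sh-NC, limma gave the UM-UC-3 difference as 1.35 ± 0.24 for HIST1H1C (SE, adjusted p = 0.68) and 1.17 ± 0.36 for HIST1H2BK (SE, adjusted p = 0.804) on the log2 scale, so neither passed.

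HIST1H1C (ENSG00000187837, 1 exon, chr6:26055787-26056428, minus strand) measured 14.2 FPKM under the control hairpin in UM-UC-3 and 37.0 and 37.1 FPKM under sh-LNMAT1#1 and sh-LNMAT1#2. Both hairpin libraries lay well above the control and next to each other. From 225, 529 and 546 fragments the ratio was 2.61 for either hairpin, with 95% counting intervals of 2.23 to 3.06 and 2.23 to 3.07. These exact conditional binomial intervals cover counting error only, not the spread between cultures. The ratios rest on 1 control library. The library labelled 5637 sh-NC, which resembled UM-UC-3 and carried the control hairpin per its label, was at 39.0 FPKM, near the hairpin libraries.

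HIST1H2BK (ENSG00000197903, 1 exon, chr6:27146418-27146798, minus strand) measured 14.3 FPKM under the control hairpin in UM-UC-3 and 32.2 and 33.9 FPKM under sh-LNMAT1#1 and sh-LNMAT1#2. Again both hairpin libraries lay above the control. The ratios were 2.24 (95% counting interval 1.82 to 2.78) and 2.36 (1.92 to 2.92). Of the 50-base words of this gene model, 74.1% also occur in other genes, most often H2BFS, so its reads can be shared with copies. For this gene too the library labelled 5637 sh-NC, at 29.8 FPKM, was nearer to the UM-UC-3 hairpin libraries than to UM-UC-3 sh-NC.

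HIST1H2AE, an H2A gene, was 2.74 times as high with sh-LNMAT1#1 (42 against 17 fragments, 95% counting interval 1.53 to 5.13) and 1.77 times with sh-LNMAT1#2 (0.937 to 3.45). HIST3H2A was at 8.19, 11.7 and 11.98 FPKM in the order sh-NC, sh-LNMAT1#1, sh-LNMAT1#2, ratios of 1.43 (1.18 to 1.75) and 1.46 (1.20 to 1.78). HIST1H2BD, a member with several exons, was at 3.37, 7.02 and 6.10 FPKM, and HIST2H2BE at 1.72, 3.68 and 2.76 FPKM. Each of these had both hairpin libraries above sh-NC by less than the 2-fold threshold with at least 1 hairpin. Other members were lower with sh-LNMAT1#1: HIST1H3H was at 4.29, 2.21 and 5.64 FPKM and HIST1H2AG at 3.11, 1.855 and 3.54 FPKM. HIST2H2BC was lower with both hairpins, at 4.68, 3.405 and 3.31 FPKM. Against sh-NC the counting interval lay above 1 for 7 of 51 members and below 1 for 5 with sh-LNMAT1#1. With sh-LNMAT1#2 it lay above 1 for 18 of 54 and below 1 for 0. No share over all genes was set beside these counts. The near-identical H2A pair HIST2H2AA3 and HIST2H2AA4 started from 3.32 and 3.09 FPKM in sh-NC, stood at 5.72 and 3.18 FPKM under sh-LNMAT1#1 and at 7.70 and 4.25 FPKM under sh-LNMAT1#2. Since 97.1% or more of their words are shared, the split between them is uncertain.

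The 2 hairpin libraries of UM-UC-3, of which sh-LNMAT1#1 stood apart over all genes, gave different counts of members. With sh-LNMAT1#1 alone, 3 of the 32 members (9.38%) were at least 2-fold higher and none lower, beside 5.55% and 5.31% of all genes. With sh-LNMAT1#2 alone, 7 of 32 (21.9%) were higher and none lower, beside 2.1% and 1.41% of all genes. The median member differed from sh-NC by 0.04 on the log2(FPKM + 0.5) scale with sh-LNMAT1#1 and by 0.47 with sh-LNMAT1#2, and the median of all genes by 0.02 with sh-LNMAT1#2. Of the 32 members, 27 reached 1 FPKM in sh-NC, and HIST1H1E and HIST1H3B, among the 7 higher, did not. The count and the median with sh-LNMAT1#2 are thus no support for a direction. Beside HIST1H1C, HIST1H2BK and HIST2H2AA3, the genes past 2-fold with sh-LNMAT1#2 were the linker histone genes HIST1H1E and HIST1H1D and the H3 genes HIST1H3B and HIST1H3C.

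HIST1H1E measured 0.537, 0.536 and 2.60 FPKM from sh-NC through sh-LNMAT1#1 to sh-LNMAT1#2. HIST1H3C was at 1.08, 0.655 and 3.08 FPKM in the same order, and HIST1H3B at 0.886, 0.437 and 2.44 FPKM. HIST1H1E and HIST1H3B were under 1 FPKM in sh-NC and were kept through sh-LNMAT1#2. In all 3 genes the sh-LNMAT1#2 library stood alone. Set directly against sh-LNMAT1#1, HIST1H1E was 4.85 times as high (45 against 9 fragments, 95% counting interval 2.34 to 11.3), HIST1H3C 4.69 times (29 against 6, 1.91 to 13.8) and HIST1H3B 5.58 times (23 against 4, 1.91 to 22.2).

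Across the 53 members with fragments in at least 1 of the 2 hairpin libraries, the interval of this ratio lay above 1 for 20, below 1 for 1 and included 1 for 32. The 1 below was HIST1H3G, an H3 gene with 20 fragments with sh-LNMAT1#1 and 0 with sh-LNMAT1#2 and in sh-NC. Outside UM-UC-3 its only 6 fragments were in the library labelled 5637 sh-NC. Among the 37 protein-coding members with recovered fragments and a mean under 1 FPKM, the summed fragments were 267 in sh-NC, 201 with sh-LNMAT1#1 and 477 with sh-LNMAT1#2. Scaled to depth as in FPKM, but not to length, this was 10.8, 9.02 and 20.8, and with sh-LNMAT1#2 29 of the 37 were higher than in sh-NC, 3 lower and 5 equal. The sum with sh-LNMAT1#2 was 1.92 times that of sh-NC (95% counting interval 1.65 to 2.24), and with sh-LNMAT1#1 0.835 times (0.692 to 1.01). These counts and intervals were not set beside a share over all genes, so they are no result particular to the members. Single-exon genes at large also differed beyond counting error. Their chi-square per gene was 56.6 between the 2 hairpin libraries and 13.3 between sh-NC and sh-LNMAT1#2.

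**Figure D3:**
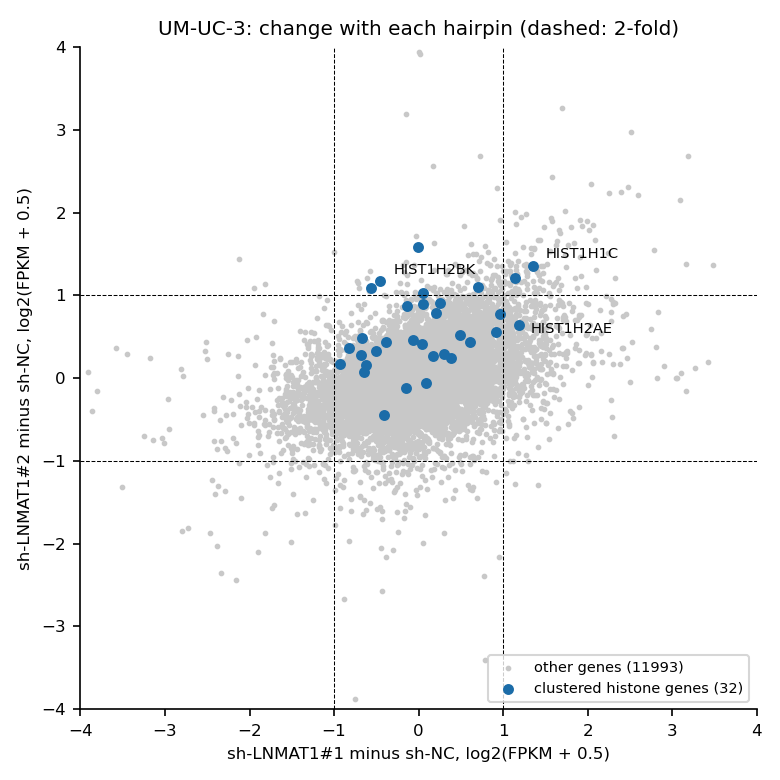
Difference from sh-NC in UM-UC-3 on the log2(FPKM + 0.5) scale with sh-LNMAT1#1 (horizontal) and sh-LNMAT1#2 (vertical) for 32 clustered histone genes (blue) and 11993 other genes (grey, 9 outside the axes), with dashed lines at 2-fold. HIST1H1C and HIST1H2BK pass both lines, and most members lie above 0 on the vertical axis, some of them kept through the hairpin libraries.

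In 5637, some members of the HIST1 and HIST3 clusters were lower with both hairpins than in the library labelled 5637 sh-NC. Others, such as HIST1H2BK and HIST1H2AG, had the hairpin libraries on either side of it, and the H3 pair of HIST2 was higher. At least 2-fold lower with both were 5 of the 20 members that averaged at least 1 FPKM over the 3 libraries (25%), namely HIST3H2A, HIST1H1C, HIST1H4K, HIST1H4J and HIST1H2AE. At least 2-fold higher were 2 (10%), the near-identical H3 genes HIST2H3A and HIST2H3C. Of all 12791 genes at that level, 12.3% were lower and 18.5% higher, so large differences from this control were common. Of the 5 lower members 3 were kept through the control alone, HIST1H1C and HIST1H4K being the exceptions, and both higher ones through the hairpin libraries alone, so these counts are no support for a direction. This comparison rests on the library that resembled UM-UC-3 and cannot be made without it.

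HIST3H2A (ENSG00000181218, 1 exon, chr1:228456979-228457873, minus strand) reached 11.6 FPKM in the control so labelled and was listed at 0 in both 5637 sh-LNMAT1 libraries. Against the 232 fragments in the first library, a floor of 3 fragments in each of the others made it at least 71.7-fold and at least 66.8-fold lower. Its divergent neighbour HIST3H2BB had 35, 0 and 0 fragments in the same order, at least 10.8-fold and at least 10.1-fold lower. In UM-UC-3 HIST3H2BB had 13, 26 and 29 fragments in the order sh-NC, sh-LNMAT1#1, sh-LNMAT1#2, so both genes of the pair were detected in the same 4 libraries.

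HIST1H1C was at 39.0 FPKM in the control so labelled and at 9.14 and 7.88 FPKM under sh-LNMAT1#1 and sh-LNMAT1#2, ratios of 0.234 (95% counting interval 0.191 to 0.285) and 0.202 (0.161 to 0.251). HIST1H2BK did not follow it: at 29.8, 21.5 and 37.0 FPKM the hairpin libraries lay on either side of the control, with ratios of 0.719 (0.589 to 0.877) and 1.24 (1.04 to 1.48). HIST1H4K was at 11.6, 1.23 and 1.65 FPKM and HIST1H4J at 5.86, 0.387 and 0.830 FPKM, and because every word of HIST1H4K occurs in HIST1H4J, they are best read as 1 signal. HIST2H3A was at 0.404, 1.57 and 1.56 FPKM, and HIST2H3C at 0.377, 1.31 and 1.47 FPKM.

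Pooling the hairpins over both lines, with cell line as a covariate, limma called none of the 25 members and none of 12717 genes (0%) at an adjusted p under 0.05. At an unadjusted p under 0.05 there were 811 genes and 1 member. The median member was lower by 0.25 on the log2 scale, beside -0.02 for all genes. Without the library labelled 5637 sh-NC the median of the members became 0.32. Without UM-UC-3 sh-NC, so that the library labelled 5637 sh-NC was the only control, it became -0.62, beside -0.01 for all genes. The pooled result thus rested on which control library entered.

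Whether the knockdown difference was alike in the 2 lines was tested by an interaction term. The difference in 5637 was below that in UM-UC-3 for 8 of 25 members (32%), and above it for none, beside 8.79% of all genes below and 9.99% above (limma, adjusted p under 0.05). Of the 8, 5 averaged under 1 FPKM in the 5637 sh-LNMAT1 libraries, and only HIST1H1C, HIST1H4K and HIST1H2BD reached it there. Those 5 were kept through the other libraries, where they were high, so the count is no support for a direction. HIST3H2A differed by -5.10 on the log2 scale, from -4.59 in 5637 and 0.51 in UM-UC-3, a value that rests on 0 FPKM in both 5637 hairpin libraries and on the pseudocount. HIST1H1C differed by -3.49 ± 0.33 (SE, adjusted p = 0.00382), from -2.14 in 5637 and 1.35 in UM-UC-3. HIST1H2AE, HIST1H4J, HIST1H2AJ, HIST1H2AI and HIST1H4K differed by -3.09 to -2.55, with adjusted p from 0.0126 to 0.0382, and HIST1H2BD by -1.49 ± 0.37 (SE, adjusted p = 0.0491). The term takes its spread from the hairpins, with 2 residual degrees of freedom, and its 5637 control is the library in doubt. On simulated data this fit missed most genes given large changes, so a gene not called here was not shown to be alike in the lines. When a 5637 hairpin library was left out 2 members were called, and without either UM-UC-3 hairpin library 9 or 8 were.

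The lines were then compared through the 4 sh-LNMAT1 libraries, which do not include the library in doubt. Of all 12844 genes tested 18.4% were lower and 20.1% higher in 5637 (limma, adjusted p under 0.05), and of 26 members 12 were lower (46.2%) and 2 higher (7.69%). That count is not support for a direction, because 8 of the 12 lower members were kept through UM-UC-3 alone and 1 of the 2 higher through 5637 alone. At 1 FPKM or more in both lines were 15 members, of which 4 were lower (26.7%) and 1 higher (6.67%), beside 15.6% and 13.9% of 10476 genes at that level. The 4 were the HIST1 genes HIST1H1C, HIST1H2AC, HIST1H2BD and HIST1H4K, and the 1 was HIST2H2AA4. By cluster they came from 7 HIST1 and 8 HIST2 members, and no test of the difference between clusters was made.

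HIST3H2A was at 0 and 0 FPKM in 5637 and at 11.7 and 11.98 FPKM in UM-UC-3, so it was kept through UM-UC-3 alone. Against 234 and 246 fragments in UM-UC-3, a floor of 3 fragments made it at least 72.8-fold lower with sh-LNMAT1#1 and at least 69.2-fold lower with sh-LNMAT1#2. HIST1H1C was at 9.14 and 7.88 FPKM against 37.0 and 37.1 FPKM, a difference of -2.06 ± 0.19 (SE, adjusted p = 0.00111). HIST1H3H, an H3 gene, was at 0.466 and 0.334 FPKM against 2.21 and 5.64 FPKM, and was likewise kept through UM-UC-3 alone. The groups did not overlap for these genes. HIST2H2AA4 was at 9.55 and 10.1 FPKM in 5637 and at 3.18 and 4.25 FPKM in UM-UC-3, a difference of 1.30 ± 0.22 (SE, adjusted p = 0.00878), and its copy HIST2H2AA3 differed by 0.68 ± 0.29 (SE, adjusted p = 0.121). HIST2H3A averaged 1.56 FPKM in 5637 and 0.639 FPKM in UM-UC-3, and was kept through 5637 alone.

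HIST1H2BK, the most abundant member, was at 21.5 and 37.0 FPKM in 5637 and at 32.2 and 33.9 FPKM in UM-UC-3, a difference of -0.22 ± 0.30 (SE, adjusted p = 0.581), and these values overlapped. The count depended on the libraries: with 1 of the 5637 libraries left out 3 or 4 members were called, without sh-LNMAT1#1 of UM-UC-3 18, and in a fit of all 6 libraries with construct type as a covariate none, with 8 at an unadjusted p under 0.05.

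**Figure D4:**
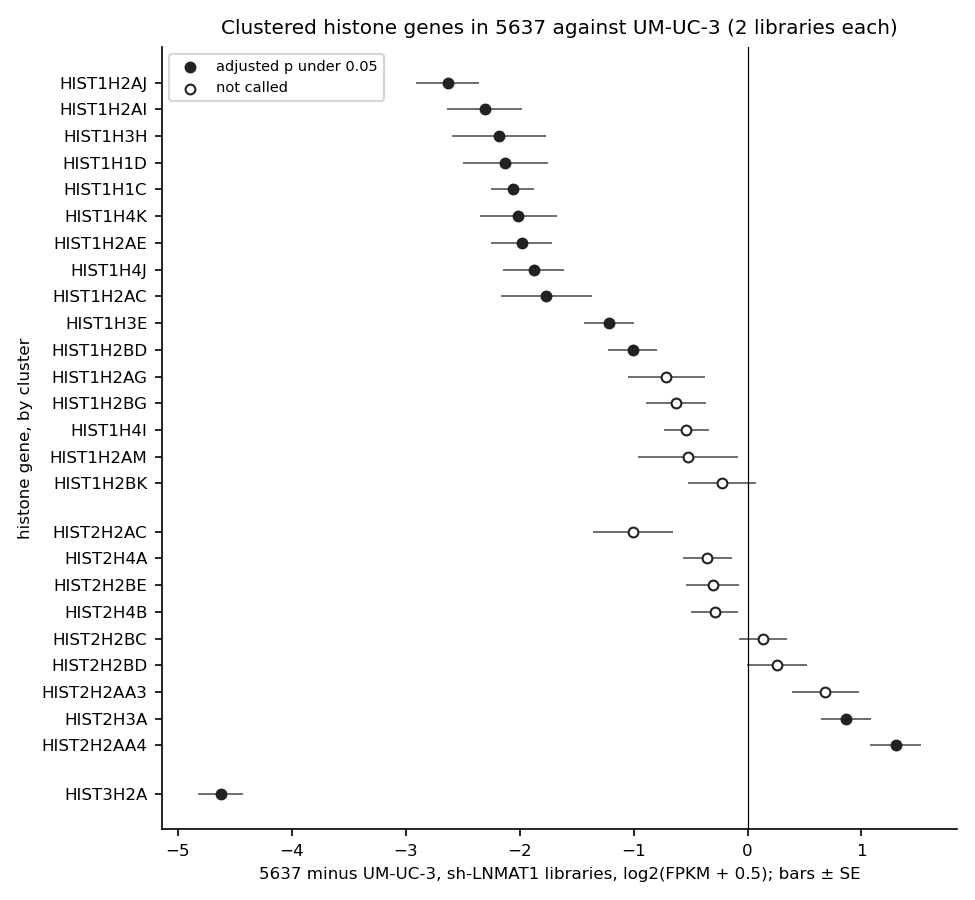
Difference between 5637 and UM-UC-3 sh-LNMAT1 libraries (2 each) on the log2(FPKM + 0.5) scale for 26 clustered histone genes by cluster, with bars of ± 1 SE and filled points at an adjusted p under 0.05. The 16 HIST1 points lie below 0, 9 of them genes kept through UM-UC-3 alone, HIST2 points lie on both sides from -1.01 to 1.30, and HIST3H2A, at 0 FPKM in 5637, lies at -4.63.

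The counts for the genes that transcribe and process histone mRNA are read beside those of all genes, of which 0% passed in the pooled comparison, 9.99% were higher and 8.79% lower in the interaction, and 20.1% were higher and 18.4% lower in 5637 than in UM-UC-3. SLBP, the stem-loop binding protein, was at 9.25, 14.6 and 10.6 FPKM in the order 5637 sh-NC as labelled, sh-LNMAT1#1, sh-LNMAT1#2, and at 11.4, 13.1 and 11.1 FPKM in UM-UC-3. NPAT, the cyclin E-CDK2 substrate that activates histone gene transcription, was at 3.72, 3.63 and 3.41 FPKM and at 5.39, 5.13 and 5.21 FPKM. Neither passed in any of the 3 limma comparisons. Of 23 genes of histone mRNA 3′ end processing and decay, none passed in the pooled comparison, 2 were higher and 1 lower in the interaction, and 3 were higher and 4 lower in 5637 than in UM-UC-3. CPSF1 and NCBP1, the most abundant of them and part of the cleavage complex and the nuclear cap-binding complex, passed in none. Of 14 genes of histone gene transcription, none passed in the first 2 comparisons, and 3 were higher and none lower in 5637. The most abundant were cyclin A2 (CCNA2), at 29.4, 10.8 and 32.1 FPKM in UM-UC-3, and the transcription factor YY1, which passed in no comparison, as CCNA2 did not.

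The median of the S phase list lay below the control in UM-UC-3 and above it in 5637. Of 24 genes, none passed in the pooled comparison, 6 were higher and none lower in the interaction, and 8 were higher and none lower in 5637 than in UM-UC-3. The median of the list differed from sh-NC in UM-UC-3 by -0.65 with sh-LNMAT1#1 and by -0.38 with sh-LNMAT1#2, the library in which the low members were higher. In 5637 it differed from the library labelled sh-NC by 1.0 and 0.83 with the 2 hairpins, with 10 of 24 genes at least 2-fold higher with both and none lower, beside 18.5% and 12.3% of all genes. PCNA, the sliding clamp of DNA polymerase, was at 163.0, 157.9 and 114.6 FPKM in UM-UC-3 in the order sh-NC, sh-LNMAT1#1, sh-LNMAT1#2, and FEN1, the flap endonuclease, at 31.1, 25.2 and 25.2 FPKM. Of 20 histone chaperone and assembly genes, none passed in the pooled comparison, 3 were higher in the interaction, and 3 were higher and 1 lower in 5637. The subunits of FACT, a complex that moves H2A and H2B, are SSRP1 and SUPT16H, and neither passed. The largest difference between lines within this list was for CHAF1B, a subunit of the assembly factor CAF-1 chosen after its values were seen, at 2.33 (adjusted p = 0.000759).

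Replacement histone genes, whose mRNAs are polyadenylated, behaved individually. Of 11 tested, none passed in the pooled comparison and 1 was lower in the interaction. In 5637 against UM-UC-3, 2 were higher and 2 lower. H1F0, the linker histone H1.0, was at 40.1 and 23.9 FPKM in the 5637 sh-LNMAT1 libraries, at 186.1 and 311.0 FPKM in those of UM-UC-3, and at 273.7 and 207.6 FPKM in the controls labelled UM-UC-3 and 5637. Its difference between lines was -2.94 (adjusted p = 0.00296), in the direction of HIST1H1C, and the linker histone gene H1FX was lower by 1.53 on the same scale (value -1.53, adjusted p = 0.00726). H3F3A, which encodes the replacement histone H3.3, was higher in 5637 by 1.36 (adjusted p = 0.013). H3F3B, which encodes the same protein, was at 11.9, 13.6 and 37.7 FPKM in UM-UC-3, and H2AFZ (H2A.Z) at 34.2, 35.2 and 18.8 FPKM, and neither passed in any comparison.

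Other RNAs without a poly(A) tail differed widely between libraries. Of 30 such symbols 15 were in the table, and 5 of the 21 rows averaged at least 1 FPKM in UM-UC-3. From sh-NC through sh-LNMAT1#1 to sh-LNMAT1#2 their summed FPKM was 13.0, 649.0 and 32.4 in UM-UC-3 and 182.9, 6.14 and 7.27 in the libraries labelled 5637. RPPH1, the RNA of ribonuclease P, was at 630.8 FPKM in UM-UC-3 sh-LNMAT1#1, at 164.1 FPKM in the control labelled 5637, and listed at 0 in the other 4. RN7SK, the 7SK RNA, was at 1.83, 7.05 and 21.99 FPKM in UM-UC-3 and at 9.56, 0.291 and 1.56 FPKM in the 5637 libraries as labelled. The more abundant entry of RN7SL1 was at 3.52, 6.755 and 2.19 FPKM in UM-UC-3. These RNAs thus had no shared order over the UM-UC-3 libraries. The part of tail-less RNA carried into the libraries in the histone values was not tested.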

How the data were processed

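RNA of 6 libraries from UM-UC-3 and 5637 cells was measured by sequencing. Per the labels, RNA was extracted with TRIzol and libraries were made with a stranded mRNA kit, and the submitters' processing notes name HISAT2 and hg38, while the counting tool and annotation are not given in the sources used here. The deposited table gives FPKM for 50869 genes, normalized by the authors to model length and depth, and the 1 gene without values was dropped. Members and gene lists were chosen with earlier results of these data known.

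Gene models were those of GENCODE 29 (GRCh38), where 82 of the 88 members had the position given in the table. For single-exon genes FPKM was an exact multiple of what 1 fragment is worth, which gave the depth and, for 66 members, whole fragments (396 of 396 values within 0.05). Ratios of fragments carry exact conditional binomial intervals (95%), and a floor of 3 fragments stands for 0. Intervals and floors cover counting error only. FPKM themselves were tested with limma 3.58.1 (R 4.3.3, empirical Bayes with trend) on log2(FPKM + 0.5) for genes averaging at least 1 FPKM in the libraries compared, with Benjamini-Hochberg adjustment over all genes and a threshold of 0.05. The log2(FPKM + 0.5) scale understates the change of low genes. The fits were tested on simulated data, where the interaction fit missed most of the changed genes. No source says that libraries came from separate cultures, and the 2 hairpins stand in for replicates. In the interaction and in the comparison of lines through the sh-LNMAT1 libraries, p-values thus measure the spread between hairpins. The pooled fit has no interaction term, so its p-values also take in how far the knockdown difference disagreed between the lines.

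Named genes were drawn from the members averaging at least 1 FPKM over the 6 libraries and the highest few of the others. Not all members at that level are named, and those with larger differences are described more fully. LINC01296, SLBP, NPAT, H2AFZ, H3F3A and H3F3B were also named and, from each list, the genes past the pooled threshold or else the 2 most abundant. Genes named outside this rule (HIST1H1E, HIST1H3B, HIST1H3C, HIST1H3G, HIST2H3A, HIST2H3C, HIST3H2BB, CHAF1B, RN7SL1) were named after their values were seen. Shared sequence was counted as 50-base words found in another gene model. Alternatives were other pseudocounts (0.1 and 1), filters (none, 5 FPKM), folds (1.5 and 5), 75th-percentile scaling, no trend, other covariates, and leaving out libraries or members.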

Additional observations from a re-analysis of the deposited data

Results flagged for a closer look

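The knockdown difference departed between the 2 cell lines for 8 clustered histone genes, each tested by the interaction of line and knockdown in limma (5637 minus UM-UC-3, log2 scale). The values were -5.1 for HIST3H2A (adjusted p = 0.0029), -3.49 for HIST1H1C (0.00382), -3.09 for HIST1H2AE (0.0126), -3.07 for HIST1H4J (0.0133), -2.74 for HIST1H2AJ (0.0192), -2.69 for HIST1H2AI (0.0319), -2.55 for HIST1H4K (0.0382) and -1.49 for HIST1H2BD (0.0491). Each value includes the library labelled 5637 sh-NC, which correlated with the UM-UC-3 libraries at r = 0.922 to 0.985 and with the other 5637 libraries at r = 0.617 to 0.622, and its part in these values was not tested. HIST3H2A and HIST1H2AJ were at 0 FPKM in both 5637 sh-LNMAT1 libraries, so their values and p rest on the pseudocount. HIST1H2AE, HIST1H4J and HIST1H2AI also averaged under 1 FPKM there, so the shared sign of the 8 values is no support for a direction. HIST1H4J shares 81.2% of its 50-base words with HIST1H4K, and HIST1H2AJ 83.7% with HIST1H2AI, so these 4 genes are not 4 independent signals. With 1 library per construct, no group had enough samples for a test of single libraries that stand apart.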

How the results depend on the processing

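No paired analysis was possible because every library bears the same replicate number, which leaves nothing to block on. Hairpins did match between lines: with the hairpin as a block, an alternative chosen after seeing the data, the 12 lower and 2 higher members between lines became 13 and 2. The count of UM-UC-3 members at least 2-fold higher with both hairpins (2) became 5 at 1.5-fold, 0 at 5-fold, 3 from sh-LNMAT1#1 and 7 from sh-LNMAT1#2 taken alone. It kept its value under both pseudocounts, both filters and 75th-percentile scaling, and the count of lower members was 0 throughout. In 5637 the count of higher members (2) became 0 with a pseudocount of 1, a mean of at least 5 FPKM or 5-fold, 1 with 75th-percentile scaling and 4 with sh-LNMAT1#2 alone. The count of lower members (5) became 10 without a filter, 1 at a mean of at least 5 FPKM and 2 at 5-fold. Fewer members entered the fits at 5 FPKM. The pooled count stayed at 0 except without UM-UC-3 sh-NC, where 1 control library remained and the median member was at -0.62, beside -0.01 for all genes. The interaction count of lower members (8) became 3 at 5 FPKM and 3 without a filter, where 2 were higher, and 2 to 9 when 1 library was left out. The cause was not tested. Between the lines the counts (2 higher, 12 lower) became 1 and 2 at 5 FPKM, 1 higher without a filter or with all 3 UM-UC-3 libraries, 0 and 0 in the fit of all 6 libraries with construct type, and 0 to 3 higher and 3 to 16 lower when 1 library was left out. Where 1 library of a group remained, it was taken to vary like the others. Sums were compared as log2 ratios to sh-NC, beside the spread between hairpins. In 5637 the sum of all members with sh-LNMAT1#1 was -1.16 after 75th-percentile scaling and -1.71 without copies and pseudogenes (-1.59 with sh-LNMAT1#2). That scaling gave, for sh-LNMAT1#1 and sh-LNMAT1#2 in 5637, -2.34 and -2.39 for H1, -0.32 and -0.34 for H3, -1.99 and -1.84 for H4, and -0.94 for H2A with sh-LNMAT1#1. It moved the median of all genes to -0.13 in the pooled comparison and -0.18 in the interaction. Without the most abundant gene of a class the ratios in 5637 were -0.64 for H1 with sh-LNMAT1#2, -1.07 and -0.94 for H2A, -0.28 for H2B with sh-LNMAT1#2, 0.1 and 0.05 for H3, and -1.12 and -1.09 for H4. In UM-UC-3 they were 0.08 and 0.35 for H2B, and H1 turned to -0.55 with sh-LNMAT1#1 and was 1.27 with sh-LNMAT1#2. At these depths a gene at 1 FPKM has few fragments, which limits every statement on the low members.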
